A study of Homo sapiens with 3 samples.

Results

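The peaks bound by both Fra-1 and Fra-2 at promoters in MDA-MB-231 cells were chosen by position and overlap in the deposited peak lists. A Fra-2 peak on chromosomes 1 to 22 was taken when it shared at least 1 bp with a Fra-1 peak and when its centre was no more than 1 kb from a protein-coding transcription start site (TSS). Peaks less than 1 Mb from runs of 1 Mb or more of unknown bases were dropped. This left 323 of 13003 Fra-2 peaks, and they overlapped 320 of 9998 Fra-1 peaks. They lay within 1 kb of a TSS of 306 of 18886 protein-coding genes (1.62%). The cells are an established human line from a triple-negative, basal B breast cancer, grown in serum-containing medium with no drug or genetic change named in the labels. Chromatin was immunoprecipitated with an antibody to Fra-1 or to Fra-2 and sequenced. The labels mention 2 independent replicates, but each antibody has a single list of peaks here and no value has a spread between replicates. The lists hold the start and end of each peak and no height or score, so the depth behind a peak is unknown. The input DNA was not analysed here.

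Fra-1 and Fra-2 are products of the FOSL1 and FOSL2 genes. Like other Fos proteins they bind DNA as dimers, chiefly with a Jun protein, through a basic leucine zipper, and the dimers are known as AP-1. The preferred site is the AP-1 element TGACTCA, which reads TGAGTCA on the other strand, and dimers that contain an ATF or CREB protein prefer the longer cyclic AMP response element TGACGTCA. Most AP-1 binding in mammalian cells is at enhancers, and the bulk of promoters, which are rich in CpG dinucleotides, lack the element.

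Stretches around the element are shown first for 10 members, because they are the letters on which the comparisons of sequence below turn. They were read from the plus strand of hg19 (GRCh37) and run 5′ to 3′. Capitals mark every copy of the AP-1 element in the stretch, or for PDE4A the cyclic AMP response element. AXL, TGFBI, SPRED2 and F3 hold 1 copy at genes of signalling, matrix and coagulation, FOSL1 and FOSL2 are the genes of the factors themselves, and EMP3, FLNC and DNAJB5 hold 3 copies within 100 bp of the peak centre, of which the FLNC and DNAJB5 stretches reach 2. Short stretches are given where an untranslated region is near.
AXL at chr19:41731747-41731873: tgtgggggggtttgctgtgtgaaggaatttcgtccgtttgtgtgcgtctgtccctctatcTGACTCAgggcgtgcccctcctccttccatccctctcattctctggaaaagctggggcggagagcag
TGFBI at chr5:135394392-135394518: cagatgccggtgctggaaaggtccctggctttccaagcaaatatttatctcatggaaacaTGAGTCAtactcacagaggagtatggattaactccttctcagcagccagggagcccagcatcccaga
SPRED2 at chr2:65593852-65593978: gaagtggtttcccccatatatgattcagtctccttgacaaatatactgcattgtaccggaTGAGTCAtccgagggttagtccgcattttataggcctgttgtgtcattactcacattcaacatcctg
F3 at chr1:95007459-95007585: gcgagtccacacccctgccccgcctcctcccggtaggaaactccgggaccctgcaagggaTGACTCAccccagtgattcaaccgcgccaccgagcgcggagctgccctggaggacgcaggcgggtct
FOSL1 at chr11:65666797-65666923: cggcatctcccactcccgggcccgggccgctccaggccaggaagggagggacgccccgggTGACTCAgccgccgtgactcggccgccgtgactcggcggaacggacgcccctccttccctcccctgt
FOSL2 at chr2:28615718-28615746: tgccattgtagTGACTCAtctcgggcaga
EMP3 at chr19:48829320-48829446: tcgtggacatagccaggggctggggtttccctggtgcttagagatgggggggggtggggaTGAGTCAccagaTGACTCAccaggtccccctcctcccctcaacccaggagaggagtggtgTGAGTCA
FLNC at chr7:128469641-128469767: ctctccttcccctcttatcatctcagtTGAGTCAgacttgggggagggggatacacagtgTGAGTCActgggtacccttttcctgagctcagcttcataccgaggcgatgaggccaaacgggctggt
DNAJB5 at chr9:34992522-34992648: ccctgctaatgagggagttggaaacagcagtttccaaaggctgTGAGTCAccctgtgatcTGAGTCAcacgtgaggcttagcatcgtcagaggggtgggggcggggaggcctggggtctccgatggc
PDE4A at chr19:10527436-10527463: gtcagtccgcTGACGTCAcgccccagga

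Most members were not at the main start of a gene. Of 323 members, 129 (39.9%, 34.6 to 45.5) had the TSS of the canonical transcript, the one that the annotation picks to represent a gene, within 1 kb. The others lay at annotated alternative starts. Starts of all protein-coding transcript models were used, and whether they are active in these cells was not measured. Brackets after a percentage give the 95% exact (Clopper-Pearson) interval here and below. It covers counting error only and treats neighbouring peaks as independent. Canonical starts were 18582 of the 75499 annotated protein-coding TSSs (24.6%). That share counts starts that are canonical and not starts within 1 kb of a canonical one, so it is no baseline for the 39.9%. Of the 323 centres, 184 lay in introns of protein-coding genes, 36 in untranslated exons, 11 in coding exons, 15 in other exons and 77 outside protein-coding genes. In all 240 centres (74.3%, 69.2 to 79.0) were inside a transcript of the gene whose TSS was nearest. Peaks of the Fra-2 list alone at promoters, chosen by the same distance, numbered 407. They overlapped no peak of the Fra-1 list, whose cutoff is not stated, so binding of Fra-1 at them was not excluded. They had a canonical TSS within 1 kb more often, at 54.5% (Fisher exact test, two-sided, with an adjusted p of 0.000413 over 40 comparisons added after the data were seen). The difference kept its direction in peaks under 200 bp wide (41.0% against 57.6%, exact test adjusted p = 0.0119) and missed the threshold in wider ones (39.5% against 48.1%, adjusted p = 0.183).

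The rule fixed a distance of at most 1 kb from the nearest TSS, and the position within that limit is a description. Within 200 bp of the TSS lay 139 members (43.0%, 37.6 to 48.6), 97 of them upstream, and the median distance was 287 bp. Upstream centres made up 62.2% (56.7 to 67.5). No difference in position from the Fra-2-only promoter peaks passed, with 45.0% within 200 bp (adjusted p = 0.746, Fisher exact test; difference of -1.93 percentage points) and 59.2% upstream (adjusted p = 0.541). At 12 members TSSs of different genes on opposite strands lay within 1 kb. One of these had TSSs of KRT8 and KRT18, the genes of a pair of keratins of simple epithelia, within 1 kb, and its centre lay in an exon.

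**Figure D1:**
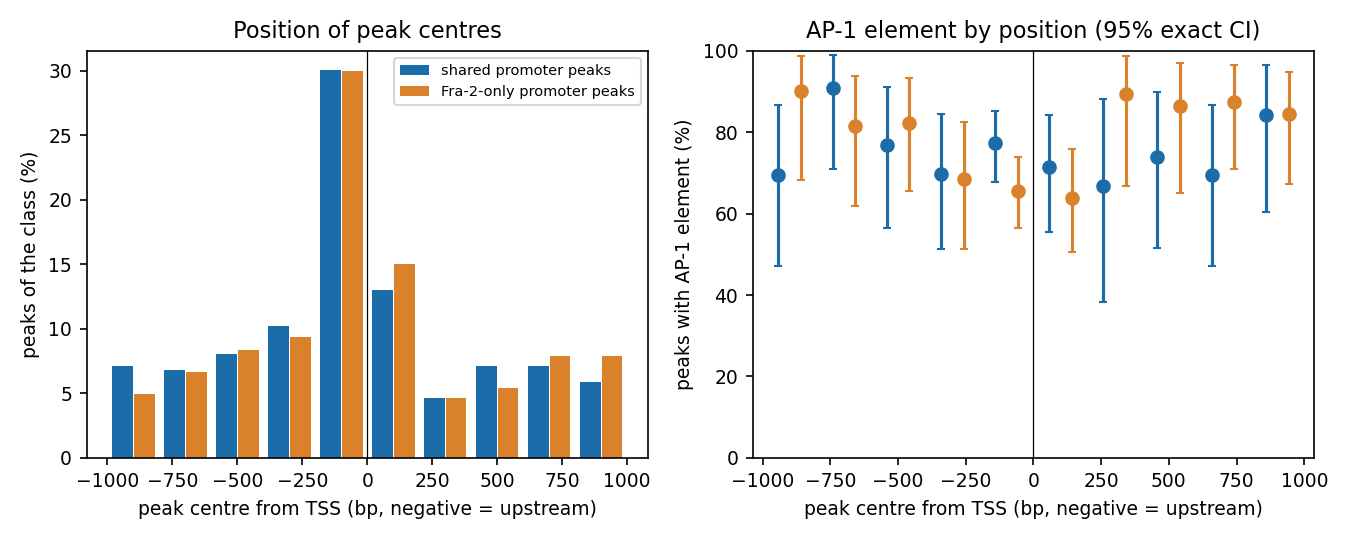
Left, share of peaks in bins of 200 bp by the distance of the centre from the nearest TSS, for the 323 shared (blue) and 407 Fra-2-only (orange) promoter peaks. Right, share of each bin with an AP-1 element within 100 bp of the centre, with 95% exact intervals; the 200 bp upstream hold 97 members and 122 Fra-2-only peaks.

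Members were chosen for their overlap, so the distance between their Fra-1 and Fra-2 centres is given as a description. It was 25 bp in the median, as at shared peaks away from promoters, and at most 200 bp, 298 of 323 pairs had centres within 50 bp, and 92 pairs had identical start and end. As positions lie on a grid of 50 bp, offsets of centres under 25 bp could not be seen. The Fra-1 centre was itself within 1 kb of a TSS for 321 members. Median width was 200 bp in both lists, with a range of 100 to 700 bp for Fra-2 and 100 to 750 bp for Fra-1. Width is the only measure of a peak that the lists give, and it need not follow occupancy.

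Fra-2 peaks were the wider of a pair more often here than at shared peaks elsewhere. The Fra-2 peak was wider in 162 pairs (50.2%), equal in 99 and narrower in 62. Among the 6557 shared peaks whose centres lay over 1 kb from a protein-coding TSS, called shared distal peaks below, it was wider in 39.3% (Fisher exact test, adjusted p = 0.000429). The difference in Fra-2 widths of at least 200 bp between promoters and distal sites missed the threshold (69.0% against 65.2%, ratio 1.06, 0.983 to 1.14, Fisher exact test, adjusted p = 0.168 over 3 comparisons). Widths of at least 300 bp were more common, at 31.9% against 21.7% (exact test adjusted p = 0.000173). For the Fra-1 peak the same limit gave 21.1% against 16.9% (exact test adjusted p = 0.106). Across the 323 members the widths in both lists were correlated (Pearson r = 0.57, Spearman rho = 0.56), as a description across peaks of the same cells.

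**Figure D2:**
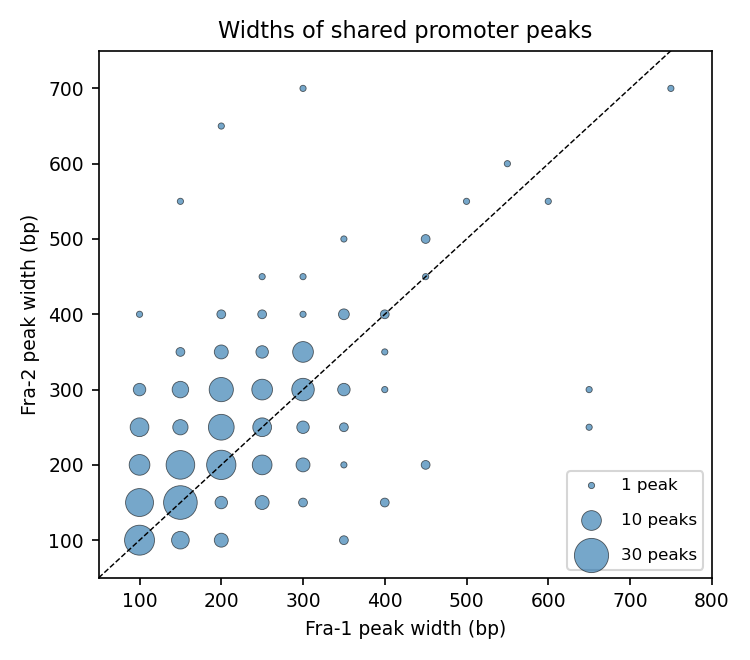
Width in bp of the Fra-1 peak (x axis) and the Fra-2 peak (y axis) for each of the 323 members; the area of a circle gives the number of peaks at that pair of widths and the dashed line marks equal width. More pairs lie above the line (162) than below it (62).

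Most members held an AP-1 element. In 243 members (75.2%, 70.2 to 79.8) it was found no more than 100 bp from the centre, and in 66.7% to 90.9% of members in each bin of 200 bp of distance from the TSS. The differences from the 70.4% of shared distal peaks (ratio 1.07, 1.001 to 1.14, Fisher exact test, adjusted p = 0.247 over 51 motif comparisons) and the 74.7% of Fra-2-only promoter peaks (ratio 1.01, 0.926 to 1.10, adjusted p = 1) missed the threshold. Promoters without a peak seldom had one. Windows reaching 100 bp to either side were taken, 1 for each protein-coding gene with no peak of either list within 5 kb. They were placed at the members' distances from the most upstream TSS of the gene. Of these 16722 promoter windows 2.25% held the element, so that members held it 33.4 times as often (29.7 to 37.5, exact test adjusted p = 1.6e-295). This ratio was 58.6 within 50 bp of the centre and 15.4 within 250 bp. It was 92.9 in CpG-rich sequence, with 23 members, and 26.5 in other sequence, with 300 members. The element sat a median of 21 bp from the centre, and 60.1% of the nearest copies were within 25 bp, against 61.0% in shared distal peaks (exact test adjusted p = 0.829).

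The narrowest members held the element less often. It was in 57.9% of the 38 members 100 bp wide and 77.5% of the wider ones (Fisher exact test, adjusted p = 0.0314). By width it was in 56.5% at 150 bp, 84.7% at 200 bp, 81.2% at 250 bp, 87.5% at 300 bp and 78.7% of the 47 members of 350 bp or more. In the Fra-2-only class the element was scarcer close to the TSS, with 65.0% within 200 bp and 82.6% beyond (exact test adjusted p = 0.000257). In members the shares were 75.5% and 75% (difference 0.540 percentage points, exact test adjusted p = 1), and whether the classes differ in this contrast was not tested. Set side by side within 200 bp, members held the element in 75.5% and Fra-2-only peaks in 65.0% (exact test adjusted p = 0.096).

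Members held 2 or more copies of the element more often than Fra-2-only promoter peaks. Exactly 1 copy lay within 100 bp of the centre of 196 members, 2 copies of 43 and 3 copies of 4. At least 2 copies were thus in 47 members (14.6%, 10.9 to 18.9), against 3.19% of Fra-2-only promoter peaks (ratio 4.56, 2.51 to 8.27, Fisher exact test, adjusted p = 2.59e-07) and 17.3% of shared distal peaks (adjusted p = 0.312). In peaks at least 200 bp wide the shares were 18.4% and 4.65% for members and Fra-2-only promoter peaks (exact test adjusted p = 0.000503), and in narrower ones 6% and 2.52% (adjusted p = 0.183). Fra-2-only promoter peaks were narrower, with a median of 150 bp against 200 bp. Widths differed among the wider peaks too: 14.6% of members and 0.737% of Fra-2-only promoter peaks were 350 bp or more. Whether width accounts for the difference in copies was not tested. Neighbouring copies started a median of 39 bp apart, from 7 to 126 bp. The members with 3 copies were PLEC, EMP3, FLNC and DNAJB5, and the stretches of the last 3 are those printed above.

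The bases next to the element also differed between classes. Each element was written to read TGACTCA, and a purine before it with a pyrimidine after it was counted. This held for 111 of 243 members with the element (45.7%, 39.3 to 52.2), against 22.3% of the 377 promoter windows with one (Fisher exact test, adjusted p = 1.06e-08). Fra-2-only promoter peaks had it in 60.9%, more often than members (exact test adjusted p = 0.00154), and the difference passed in both wide (48.4% against 64.0%, adjusted p = 0.0253) and narrow peaks (36.8% against 59.1%, adjusted p = 0.00982). Shared distal peaks, at 48.5%, were not told apart from members (exact test adjusted p = 0.537). The most frequent word with 1 base on each side was GTGACTCAG in 34 members, followed by GTGACTCAC in 32 and ATGACTCAC in 28. In the Fra-2-only class GTGACTCAC led with 69 of 304. Along the direction of transcription the nearest element read TGACTCA in 93 of 243 members (38.3%, 32.1 to 44.7) and TGAGTCA in the rest, and TGACTCA in 44.1% of Fra-2-only promoter peaks (exact test adjusted p = 0.272 for the difference).

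Among 17 motifs compared, 5 (29.4%) differed between members and promoter windows at an exact test adjusted p under 0.05, 2 (11.8%) between members and shared distal peaks, and 0 (0%) between members and Fra-2-only promoter peaks, where 2 (TEAD and the TATA box) had an unadjusted p under 0.05. Every motif was sought on both strands within 100 bp of the centre, and a match is a description of letters only. The TEAD site, GGAATGC or GGAATGT, read by the DNA-binding proteins that recruit YAP and TAZ, was in 10.8% of members and 3.98% of promoter windows (ratio 2.72, Fisher exact test, adjusted p = 2.89e-06). Shared distal peaks held it in 13.1%, not told apart from members (exact test adjusted p = 0.552). RUNX sites (AACCACA) were in 5.57% of members and 2.48% of promoter windows (exact test adjusted p = 0.0156), and in 7.70% of shared distal peaks (adjusted p = 0.451 against members). The core of the antioxidant response element, TGACNNNGC, was in 21.98% of members and 8.03% of promoter windows (exact test adjusted p = 4.04e-13), but it overlaps an AP-1 element followed by GC. Shared distal peaks held the core in 17.6% (exact test adjusted p = 0.217 against members). Among the 80 members without an AP-1 element it was in 11 (13.8%, 7.07 to 23.3). GGGGCGGGG, a site of SP and KLF factors that is common in CpG-rich promoters, went the other way, with 2.48% of members against 8.28% of promoter windows (exact test adjusted p = 0.000405). That share was still above the 0.549% of shared distal peaks (exact test adjusted p = 0.00889). The E-box CACGTG, a site of MYC and USF proteins, was in 5.88% of members and 2.78% of shared distal peaks (exact test adjusted p = 0.0243). TGACGTCA was in 2 members (0.619%), at ZBTB38 and PDE4A, and in 0.753% of promoter windows.

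The other motifs passed in none of the 3 comparisons. The ETS site CCGGAAGT was in 1.55% of members and 1.85% of promoter windows. The CCAAT box of NF-Y, sought as CCAAT followed by C or G and then a purine, was in 7.12% and 8.38%. The E-box CAGGTG, a site of ZEB and SNAIL repressors, was in 17.03% and 16.4%, and the FOXA site TGTTTAC in 3.41% and 2.11%. The TATA box, sought as TATAAA, was in 5.88% and 8.80%. The NF-kB site was in 2.48% and 1.32%, and the CArG box of SRF in 0.929% and 0.849%. The sites of NRF1 and YY1 and the C/EBP site TTGCGCAA were in 0 of 323 members, which allows a share of up to 0.929% counted as 3 of 323 (the exact interval reaches 1.14%), and in 0.449%, 0.520% and 0.102% of promoter windows. Of the 80 members without an AP-1 element, 17 had one within 250 bp of the centre or elsewhere in the peak, and 46 held another motif of the list.

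**Figure D3:**
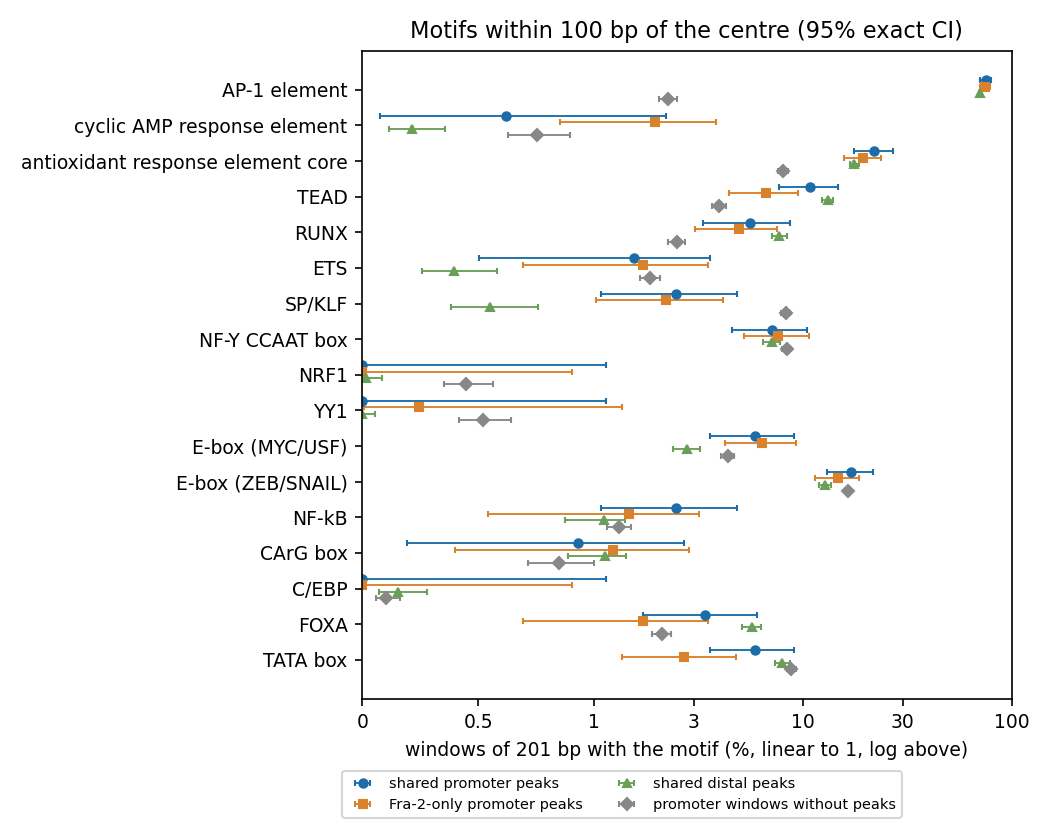
Share of windows (100 bp to either side of the centre) with each motif (x axis, linear to 1% and logarithmic above) in shared promoter peaks, Fra-2-only promoter peaks, shared distal peaks and promoter windows without peaks, with 95% exact intervals. The AP-1 element stands at 75.2% in members and 2.25% in promoter windows.

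Few members lay in CpG-rich sequence. A window of 250 bp to either side of the centre was called CpG-rich with a GC content of at least 55% and a ratio of observed to expected CpG of at least 0.75. Of the members 23 passed (7.12%, 4.57 to 10.5), against 28.3% of the promoter windows (ratio 0.252, 0.170 to 0.374, Fisher exact test, adjusted p = 1.07e-19). The median ratio of observed to expected CpG was 0.267 in members, 0.395 in Fra-2-only promoter peaks, 0.569 in promoter windows and 0.198 in shared distal peaks. In GC content members and promoter windows were closer, with medians of 54.1% and 56.1%. The 23 CpG-rich members were all within 1 kb of a canonical TSS, and 0 of the 194 members without one were CpG-rich, which allows a share of up to 1.55% counted as 3 of 194 (the exact interval reaches 1.88%). Near canonical starts alone, 17.8% of members and 32.2% of windows placed at canonical TSSs were CpG-rich (exact test adjusted p = 0.00126). These windows used the distances of all members from the nearest TSS of any transcript, so distance to the canonical start was not matched.

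CpG-rich members were VIM, F3, FOSL1 and FOSL2 among others, and 14 of the 23 (60.9%, 38.5 to 80.3) held an AP-1 element, against 76.3% of the other members (exact test adjusted p = 0.192). Fra-2-only promoter peaks held it in 41.7% of CpG-rich and 79.1% of other peaks (exact test adjusted p = 1.1e-06). In promoter windows the shares were 0.655% and 2.89%. The CpG-rich share of members was lower than the 11.8% of Fra-2-only promoter peaks by a ratio of 0.604 (0.375 to 0.971), which missed the threshold (exact test adjusted p = 0.0654 over 3 comparisons) and passed with a looser limit of 50% GC and a ratio of 0.6 (ratio 0.498, adjusted p = 3.28e-06).

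**Figure D4:**
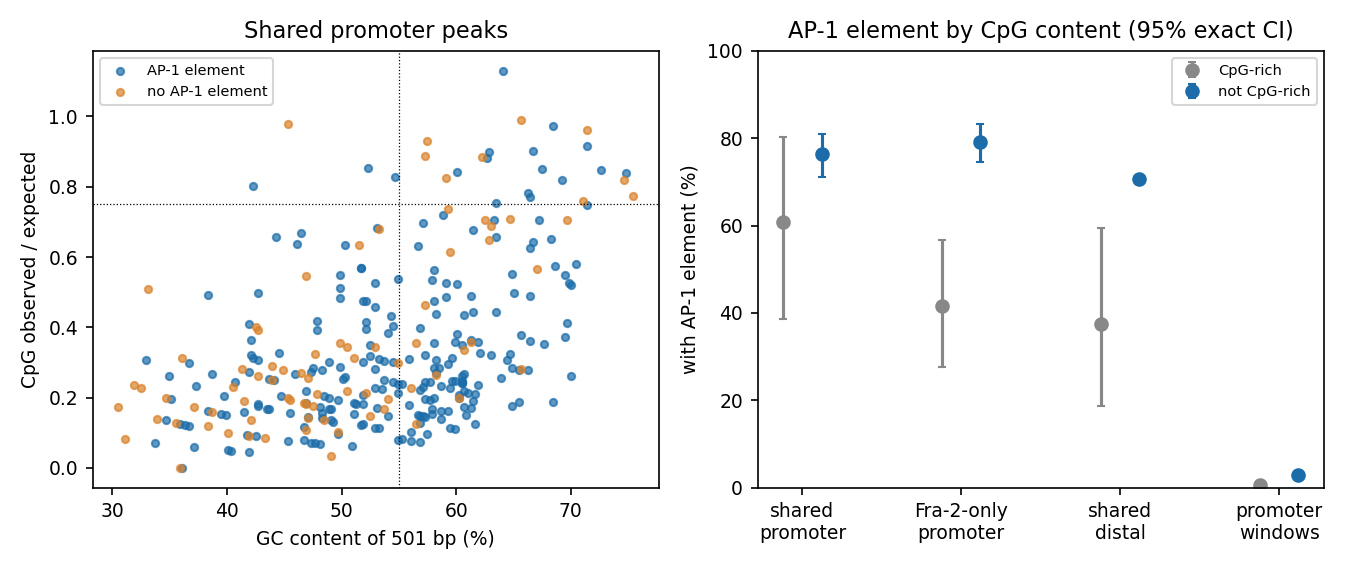
Left, GC content and ratio of observed to expected CpG of the 250 bp to either side of each member's centre, coloured by presence of an AP-1 element, with dotted lines at the limits for CpG-rich sequence; 23 members lie in the upper right. Right, share with an AP-1 element in CpG-rich and other sequence of 4 classes, with 95% exact intervals.

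Members often lay near other shared peaks. A further shared peak away from promoters lay within 50 kb of 164 members (50.8%, 45.2 to 56.4), against 29.2% of Fra-2-only promoter peaks (ratio 1.74, 1.44 to 2.09, Fisher exact test, adjusted p = 1.03e-08). SMAD3, which carries the TGF-beta signal, CAPN2, a calpain protease, CDC27, a subunit of the anaphase-promoting complex, and STK40, named after their values were seen, each had at least 1 member with 5 or 6 such neighbours. At 25 genes 2 or more members lay within 1 kb of a TSS, and genes with 3 included ABCB9, ANKRD11, CDC27, GBE1, LMNA and PDHX. The 3 at CDC27, on chromosome 17 from 45213751 to 45214501, held no AP-1 element, were 100 to 150 bp wide and lay over 52 kb from the canonical TSS. Peaks of 1 gene are not independent of each other. In 4 places 2 members overlapped the same Fra-1 peak, at ADPRHL1, MARCHF4, PDHX and CDK5RAP3.

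The genes of the factors had members of their own. At FOSL1 the Fra-2 peak ran from 65666751 to 65667001 on chromosome 11 and the Fra-1 peak from 65666801 to 65666951, so that widths were 250 and 150 bp. It was in the first kilobase of the gene, in an intron 983 bp downstream of the TSS, and its AP-1 element is printed above. At FOSL2 the Fra-2 peak was on chromosome 2 from 28615601 to 28615801 and the Fra-1 peak from 28615651 to 28615801, with the centre 24 bp upstream of the nearest TSS. MAFG, a small Maf protein that also dimerises through a leucine zipper, had peaks of 200 bp in both lists on chromosome 17 from 79884701 to 79884901. These were 3 of the 24 listed genes of the AP-1 family, beside the 1.62% of all genes. ATF3, ATF5 and CREB5 had Fra-2-only promoter peaks. Of 20 immediate-early genes, such as EGR1 and the KLFs, 0 had a member, although 5 had a shared peak within 5 kb of a TSS, beside 4.92% of all genes.

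Of the 22 listed targets of YAP, TAZ and TEAD, 5 (22.7%) had a member, the highest share of the 13 lists at 1 kb. Within 5 kb it was 6 (27.3%), and adhesion and cytoskeleton genes stood highest with 8 of 23 (34.8%). AXL, a receptor tyrosine kinase linked to invasion, had 1 of the 2 widest members, from 41731501 to 41732201 on chromosome 19 in the Fra-2 list and to 41732251 in the Fra-1 list. It was not at the main start: its centre lay in an intron 809 bp upstream of an alternative TSS and 6723 bp from the canonical one. ANKRD1, a stress-responsive ankyrin repeat protein, had peaks of 400 bp in both lists with the centre 257 bp upstream of the canonical TSS and no AP-1 element within 100 bp. F3, which encodes tissue factor, the cell-surface trigger of coagulation, had a Fra-2 peak of 300 bp and a Fra-1 peak of 250 bp, 236 bp upstream. The matricellular gene CCN1 had narrow peaks of 150 and 100 bp, 218 bp upstream, without an AP-1 element. AJUBA, a LIM protein that binds LATS kinases and is named after its values were seen, had peaks of 100 bp in both lists at an alternative start, with a TEAD site and no AP-1 element. The members at AXL, ANKRD1, F3 and CCN1 held no TEAD site within 100 bp of the centre.

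Of 23 measured proteases and inhibitors 3 had a member (13.0%). PLAU encodes urokinase, which activates plasminogen at the cell surface, and its upstream enhancer is a classical AP-1 target. Its Fra-2 peak ran from 75668801 to 75669151 on chromosome 10 and its Fra-1 peak from 75668801 to 75669101. The centre was 41 bp from an alternative TSS and 1914 bp from the canonical one, and no TGACTCA lay within 100 bp. PLAT, the tissue plasminogen activator, and CTSB, the lysosomal protease cathepsin B, both had members 250 bp wide in the Fra-2 list at alternative starts, 11107 and 13920 bp from their canonical ones, with 1 and 2 AP-1 elements. No listed matrix metalloproteinase gene had a member, and at the 1.62% of all genes less than 1 would be expected among them. MMP19, a matrix metalloproteinase gene outside the list and named after its values were seen, did have one. Its Fra-2 peak was 150 bp wide, with the centre 42 bp upstream of a TSS and an AP-1 element.

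Structural genes followed. Of 22 mesenchymal and matrix genes 2 had a member (9.09%). VIM, the intermediate filament of mesenchymal cells, had identical peaks in both lists on chromosome 10 from 17270401 to 17270651 with the centre in an untranslated exon 12 bp from a TSS. TGFBI, an adhesive matrix protein, had a Fra-2 peak from 135394301 to 135394651 on chromosome 5 and a Fra-1 peak from 135394351 to 135394551, 62 bp upstream of an alternative start and 29799 bp from the canonical one. SPARC, TNC, LAMB3 and S100A4 had Fra-2-only promoter peaks. Of 23 adhesion and cytoskeleton genes 1, MYH9, the heavy chain of a nonmuscle myosin, had a member (4.35%), also at an alternative start, although 8 had a shared peak within 5 kb. ITGB5, an integrin subunit outside the list, had a member of 550 bp in the Fra-2 and 600 bp in the Fra-1 list with no AP-1 element within 100 bp. FLNC, an actin cross-linker, had peaks of 300 bp with the same coordinates in both lists.

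Signalling and stress lists had 1 member each, and shares are to be read beside the 1.62% of all genes, which gives less than 1 gene in a list of this size. SPRED2, an inhibitor of RAS signalling, was the 1 of 26 EGFR and MAPK genes (3.85%), with a Fra-2 peak of 350 bp and a Fra-1 peak of 200 bp at an alternative start. SQSTM1, an autophagy receptor, was the 1 of 20 oxidative stress genes (5.00%). SPRED2, SQSTM1 and KRT8 also had Fra-2-only promoter peaks. Luminal and epithelial genes had 3 of 22 (13.6%): KRT8 and KRT18, which share 1 peak from 53343601 to 53343801 on chromosome 12, and TFF1, a secreted trefoil peptide, with peaks of 100 bp and no AP-1 element. Lists of cytokines and inflammation (22 genes), cell cycle (20), ribosomal proteins (24) and markers of neurons, liver and blood (21 on chromosomes 1 to 22) had 0 members each. Within 5 kb of a TSS these lists had a shared peak at 2 (9.09%), 1 (5%), 0 and 3 (14.3%) genes, in that order. The share of all genes was 4.92% at that distance. Over all lists together 19 of 289 distinct genes had one (6.57%). The lists were drawn up with earlier results of these data known, several hold genes known as AP-1 targets, and neighbouring genes can share a peak, so the shares are described and not tested.

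**Figure D5:**
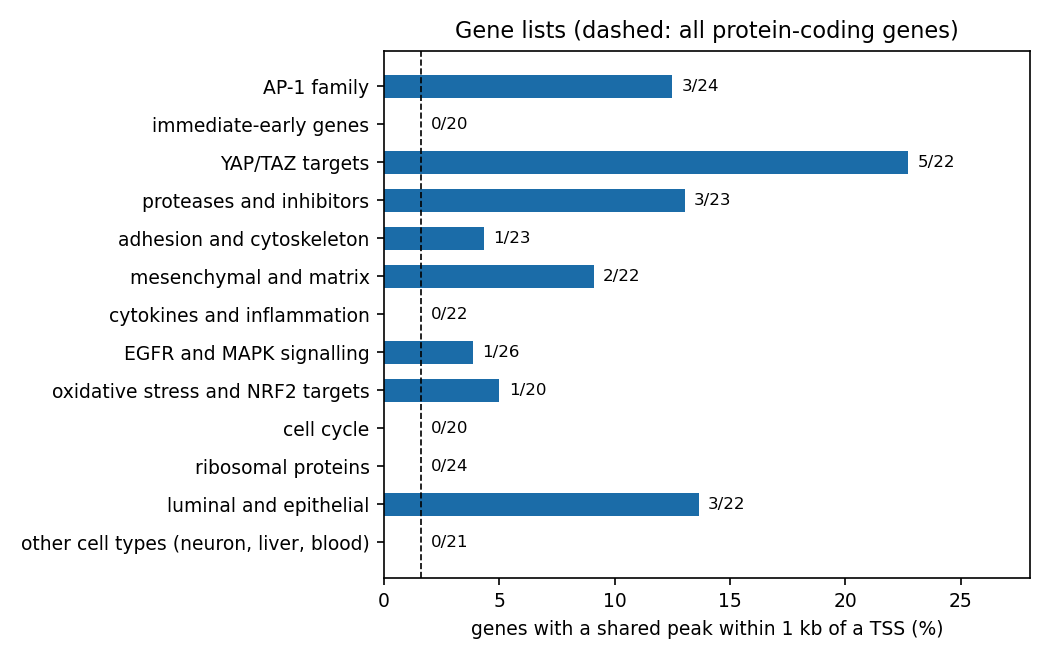
Share of the genes in each of 13 lists with a shared peak centred within 1 kb of a TSS (bars start at 0; counts beside them), with the 1.62% of all protein-coding genes as a dashed line. The YAP/TAZ targets stand at 5 of 22.

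The widest members were of mixed kind. Of the 10 widest, 5 had no AP-1 element within 100 bp: COQ8B, UCN2, ITGB5, DOCK2 and CLCF1. COQ8B, a gene of coenzyme Q synthesis, had a Fra-2 peak of 700 bp, as wide as that of AXL, that spanned more than 1 Fra-1 peak, the larger overlap being with one of 300 bp. DYNLT4, a dynein light chain gene, and TMA7B each overlapped only 1 Fra-1 peak, with Fra-2 widths of 650 and 550 bp beside Fra-1 widths of 200 and 150 bp. At UCN2, which encodes a peptide of the urocortin family, the widths were 600 and 550 bp. PAX8, a developmental transcription factor, and DOCK2, an exchange factor of RAC, had members at alternative starts 37822 and 58922 bp from the canonical ones. CLCF1, a cytokine of the IL-6 family, had widths of 500 and 450 bp. ABHD12, a lipid hydrolase gene, had 2 members, with Fra-2 widths of 500 and 450 bp.

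The limits of the definition fell among similar peaks. Just inside 1 kb lay TSPAN19 at 998 bp, TLR1 at 988 bp and MGAT5B at 985 bp from a TSS, and just outside lay shared peaks 1023 bp from IGFN1, 1025 bp from RUBCN and 1027 bp from TFPI. The smallest overlap was 50 bp, at LMNA and YOD1. Among Fra-2-only promoter peaks the nearest Fra-1 centres were 150 bp away, at PLEC and SBK3. By chromosome the share of genes with a member, 1.62% over all, was highest on chromosome 3 (30 of 1065, 2.82%). Chromosome 11 (34 of 1292, 2.63%) and chromosome 17 (27 of 1160, 2.33%) followed, and chromosome 13 was lowest (2 of 319, 0.627%). Differences between chromosomes were not tested.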

How the data were processed

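Fra-1 and Fra-2 ChIP-seq peaks of MDA-MB-231 cells were analysed. Bowtie2 and hg19 are named in the submitters' processing notes, while how peaks were called, with what cutoff and whether replicates were pooled is not stated in those notes or labels. As deposited, the files give no counts but 2 positions per peak (start and end), all 1 above a multiple of 50, and starts were read as 1-based. Overlap, distance to protein-coding TSSs (GENCODE 44 lifted to GRCh37) and motifs were computed with Python 3.11.15, numpy 2.4.6, scipy 1.17.1, pysam 0.24.0, samtools 1.23.1 and matplotlib 3.10.9.

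Classes were compared with two-sided Fisher exact tests on numbers of peaks, adjusted by Benjamini-Hochberg over 51 motif tests, 3 planned tests or 40 tests added after the data were seen. Ratios carry 95% log-normal intervals. Peaks, not samples, are counted, so p-values do not cover variation between cultures. The motif search and test were run on simulated windows of random bases with planted elements, without the base composition or clustering of real peaks. That run checks the code only. Members, gene lists and rules were chosen with earlier results of these data known. Named members (36) were up to 4 per list by Fra-2 width, the 10 widest, the 5 with most AP-1 elements, those with TGACGTCA, the genes FOSL1, FOSL2, AXL, TGFBI and PLAU, and 3 at the 1 kb limit. Others were named after their values were seen. Alternatives changed overlap, distance, annotation, width, motif window and CpG limits.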

Additional observations from a re-analysis of the deposited data

How the results depend on the processing

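No paired analysis was possible because each antibody gave 1 peak list, and leaving out a replicate could not be done either. The number of members was 323, and it was 210 within 500 bp, 511 within 2 kb and 230 with only the TSSs of transcripts tagged basic in the annotation. At canonical TSSs, an alternative added after the data were seen, as were touching peaks and 1 peak per gene, it was 129. The upstream share moved to 69.5% within 500 bp. The AP-1 element ratio to Fra-2-only promoter peaks (1.01) was 0.929 within 2 kb, 0.969 in Fra-2 peaks at least 200 bp wide, 0.965 in peaks that are not CpG-rich and 0.718 in peaks of 150 bp, and missed the threshold in each. The ratio to shared distal peaks was 0.893 in peaks of 150 bp and otherwise above 1. Over the 3 comparisons, tests of motifs other than the AP-1 element that passed numbered 6 (SP/KLF in 2 of them), and 3 within 500 bp, 3 in Fra-2 peaks at least 200 bp wide and 1 at canonical TSSs, with fewer peaks tested in each. The CpG-rich ratio to Fra-2-only promoter peaks (0.604) passed with centres within 500 bp (0.568), within 500 bp of a TSS (0.567), without windows of recurring words (0.599) and with the looser CpG limit (0.498). At canonical TSSs it was 0.920. The width ratio to shared distal peaks passed with a limit of 300 bp (1.47) and with 1 peak per gene (1.10), and was 0.994 with Fra-1 widths. Listed genes with a shared peak numbered 52 within 5 kb, against 19. The AP-1 ratio to promoter windows, the CpG-rich ratio to promoter windows and the excess of further shared peaks passed in every alternative run for them. The first of these lay between 15.4 and 92.9. The CpG-rich ratio to promoter windows lay between 0.190 in Fra-2 peaks at least 200 bp wide and 0.630 at canonical TSSs.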
